A study of Mus musculus with 3 samples.

Results

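Id1, Id2 and Id3 were followed as a small gene family through 3 RNA-seq libraries of whole mouse lung. They are 3 of the 10761 named genes with a row in the deposited table, and each has 1 RefSeq row, matched by its identifier (NM_010495 for Id1, NM_010496 for Id2 and NM_008321 for Id3). RefSeq holds 3 NM transcripts of Id1 and 1 each of Id2 and Id3, so the row of Id1 names 1 of 3. The genes were picked with their levels in these libraries already known, so their differences between the genotypes are given as a description and with no test. The 2 double-knockout libraries (DKO 1 and DKO 2) carried, per the labels, loxP-flanked Lin28a and Lin28b, with exon 2 as the part to be removed after tamoxifen by the epithelial Cre driver NKX2.1creERT. The single wild-type library (WT) came from the same C57BL/6J mixed background. The labels give no age or sex, do not say whether WT received tamoxifen or carried Cre, and do not state if DKO 1 and DKO 2 are from different animals, and their spread could therefore be technical in part. The driver acts in cells that express Nkx2-1, whereas RNA was taken from the whole lung. Lin28b had 0.187 RPKM in DKO 1, 0.590 RPKM in DKO 2 and 0.449 RPKM in WT, so the library labelled DKO 2 was not below WT. A level over a whole transcript in whole-lung RNA does not check the loss of exon 2, and Lin28a was not analysed here.

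ID proteins are helix-loop-helix proteins that lack the basic region needed to bind DNA. They pair with E proteins and so keep these and their tissue-restricted partners from binding E-box sequences. Id genes are among the best known direct targets of BMP signalling, which reaches them through phosphorylated SMAD proteins. In the embryonic mouse lung, Id2 marks the progenitors of the distal epithelial tips, and Id1 and Id3 are widely expressed in endothelium and mesenchyme.

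The helix-loop-helix region is what the 3 paralogs have most in common, and it is shown for that reason. In the best-matching coding stretch of 120 bases, 77 bases (64.2%) were identical in all 3 genes. The stretch lies at chr2:152736518-152736637 on the plus strand for Id1, at chr12:25095783-25095902 on the minus strand for Id2 and at chr4:136144002-136144121 on the plus strand for Id3, within 1 coding exon each (GENCODE transcripts, GRCm38, the build of mm10). Capitals mark bases shared by all 3.
Id1: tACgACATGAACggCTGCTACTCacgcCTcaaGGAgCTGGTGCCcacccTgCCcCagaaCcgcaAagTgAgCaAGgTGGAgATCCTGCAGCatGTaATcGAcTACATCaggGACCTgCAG
Id2: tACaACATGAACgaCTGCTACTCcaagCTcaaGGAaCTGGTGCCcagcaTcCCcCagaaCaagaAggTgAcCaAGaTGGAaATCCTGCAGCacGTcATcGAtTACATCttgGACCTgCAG
Id3: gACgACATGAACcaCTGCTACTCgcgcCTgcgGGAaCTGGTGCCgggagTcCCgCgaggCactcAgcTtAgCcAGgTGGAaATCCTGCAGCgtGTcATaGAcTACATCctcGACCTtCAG
Id1 and Id2 were the closest pair in this stretch, with 98 of 120 bases identical (81.7%), against 85 (70.8%) for Id1 and Id3 and 86 (71.7%) for Id2 and Id3. Over the whole transcripts, the longest run of identical bases was 11 for Id1 and Id2, 12 for Id1 and Id3 and 19 for Id2 and Id3. A read longer than 19 bases without a mismatch could therefore match at most 1 of these 3 transcripts. Only these genes were compared.

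The table holds RPKM, in which reads are divided by transcript length and by the depth of the library. Of its 16383 transcripts, 11138 (68.0%) were listed at 0 in all 3 libraries. From the lowest values, DKO 1 held about 30700000 reads, DKO 2 about 34200000 and WT about 48700000. Gapdh, which nearly every cell uses, had 0.115 RPKM in DKO 1, 0.185 in DKO 2 and 0.0144 in WT, so a value of 0 or near it can be a failed estimate. The 3 Id transcripts had no such low value. Of the lung epithelial markers, Epcam, an adhesion molecule, was present (6.75 RPKM in DKO 1, 10.6 in DKO 2 and 17.4 in WT), and Nkx2-1 was listed at 0 in every library. The Y-linked Ddx3y stood at 5.49 RPKM in DKO 1, 2.64 in DKO 2 and 0 in WT, so sex and genotype cannot be told apart here.

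Id3 (chr4:136143822-136145392) had the widest spread of the 3 genes, with 476 RPKM in DKO 1, 105.5 in DKO 2 and 35.0 in WT. Both DKO libraries lay above WT, and DKO 1 lay far above DKO 2. These levels stand for about 18675, 4610 and 2179 reads in the same order. The ratio to WT was 13.6 in DKO 1 (95% exact binomial interval 13.0 to 14.2) and 3.01 in DKO 2 (2.86 to 3.17), where the intervals cover counting error only. DKO averaged 291 ± 262 RPKM (SD, n = 2). On the log2(RPKM + 1) scale, which understates changes of low genes, Id3 was 3.73 above WT in DKO 1 and 1.56 above it in DKO 2. The gap of 2.16 between the DKO libraries compares with 2.65 between their mean and WT on that scale.

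Id1 (chr2:152736251-152737410) had 140.5 RPKM in DKO 1, 47.2 in DKO 2 and 40.6 in WT. DKO 1 stood apart, and DKO 2 was close to WT. Its ratio to WT was 3.46 in DKO 1 (95% exact binomial interval 3.27 to 3.66) and 1.16 in DKO 2 (1.08 to 1.24). On the log2 scale the differences were 1.76 and 0.21. The small one in DKO 2 changed sign, to −0.16, once the libraries were rescaled to TPM, and DKO averaged 93.8 ± 66.0 RPKM (SD, n = 2).

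Id2 (chr12:25093799-25096092) ran differently, with 83.5 RPKM in DKO 1, 29.2 in DKO 2 and 76.7 in WT. Here DKO 2 stood apart from the other 2 libraries, on the low side. The ratio to WT was 1.09 in DKO 1 (95% exact binomial interval 1.04 to 1.14) and 0.381 in DKO 2 (0.357 to 0.405). The log2 differences were 0.12 and −1.36, so the DKO libraries lay on either side of WT. That of DKO 1 became −0.07 when the median of short abundant transcripts was made equal across libraries. The DKO mean was 56.3 ± 38.4 RPKM (SD, n = 2), and WT lay within 1 SD of it.

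**Figure D1:**
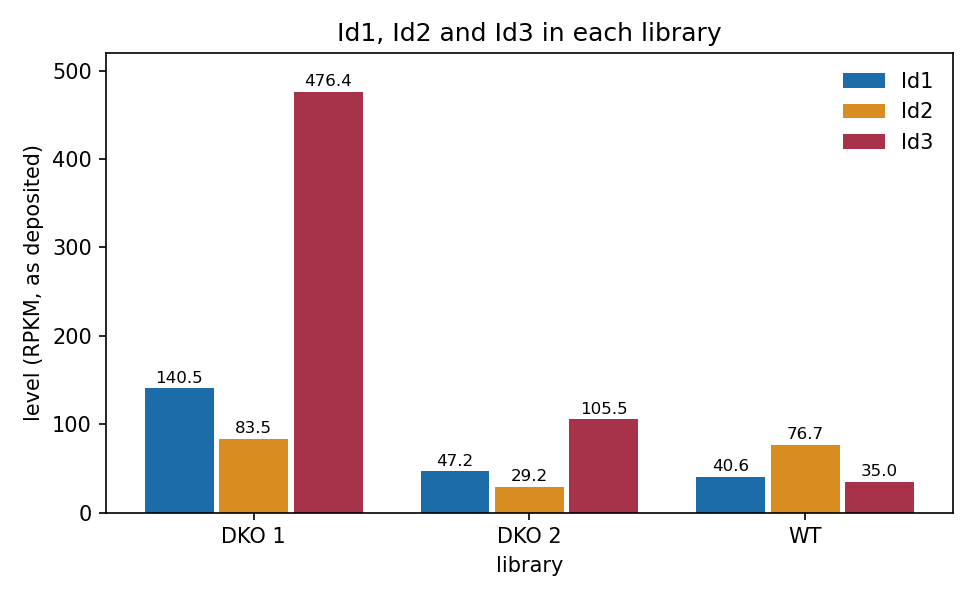
Level of Id1, Id2 and Id3 in each library, in RPKM as deposited, with 1 bar per gene and library and no error bar since each bar is 1 library. Id3 reaches 476 RPKM in DKO 1, against 35.0 in WT, while Id2 is lowest in DKO 2, at 29.2.

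All 3 genes were higher in DKO 1 than in DKO 2. The ratio of DKO 1 to DKO 2 was 2.98 for Id1 (95% exact binomial interval 2.81 to 3.16), 2.86 for Id2 (2.68 to 3.06) and 4.52 for Id3 (4.37 to 4.67). As log2 gaps these were 1.55, 1.48 and 2.16, against a median absolute gap of 0.58 over the 2066 transcripts that averaged 1 RPKM or more and were tested. Id1 and Id3 lay above WT in both DKO libraries, as did 32.1% of those transcripts, and nothing is read from that count because the genes were chosen on this contrast. None of the 3 met a rule of size that asks for a difference of 2-fold or more, both DKO libraries on one side of WT, and for DKO libraries closer to each other than to WT. That rule took 3.19% of transcripts as higher and 1.5% as lower. Id3 failed it on the gap between them. Taken singly, Id1 and Id3 were at least 2-fold above WT in DKO 1, where 8.03% of transcripts were, Id3 was in DKO 2 (15.1%), and Id2 was at least 2-fold below WT in DKO 2 (11.8%). Nothing is read from these counts either.

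The make-up of the family level differed between the libraries as well. RPKM is scaled to transcript length, so levels of the paralogs can be set side by side within a library, as far as the authors' lengths hold. The summed level of the 3 genes was 700 RPKM in DKO 1, 182 in DKO 2 and 152 in WT. Id3 made up 68.0% of the sum in DKO 1 and 58.0% in DKO 2, against 23.0% in WT. Id2 made up 11.9% and 16.1% in the DKO libraries, against 50.3% in WT. The share of Id1 differed less, at 20.1% in DKO 1, 25.96% in DKO 2 and 26.7% in WT. The order was thus Id3, Id1, Id2 in both DKO libraries and Id2, Id1, Id3 in WT.

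**Figure D2:**
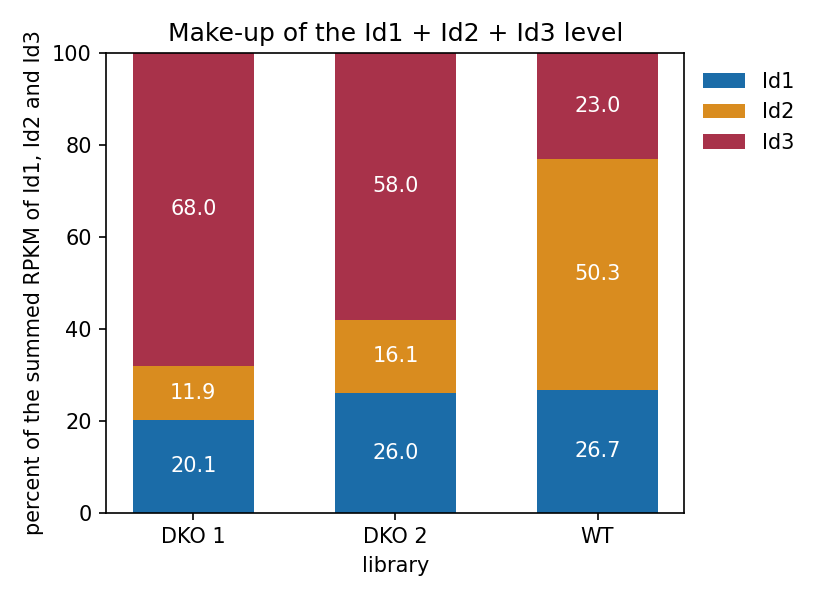
Share of each gene in the summed RPKM of Id1, Id2 and Id3, in percent, for each library. Id3 is the main part of the sum in DKO 1 (68.0%) and DKO 2 (58.0%), and Id2 in WT (50.3%).

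A ratio of paralogs within a library does not depend on how that library was scaled. Id1 over Id2 was 1.68 in DKO 1 and 1.62 in DKO 2, against 0.530 in WT. Between the DKO libraries this ratio differed little, although each of its genes was nearly 3 times as high in DKO 1 as in DKO 2. Id3 over Id1 was 3.39 in DKO 1 and 2.23 in DKO 2, against 0.862 in WT. Id3 over Id2 was 5.71 in DKO 1 and 3.61 in DKO 2, against 0.457 in WT. For each of the 3 ratios both DKO libraries lay on the same side of WT and closer to each other than to WT. Nothing is read from this, because the genes were picked with their levels known. The ratios are also not independent, since Id3 over Id2 is the product of the other 2. In log2 terms Id1 over Id2 was 1.67 and 1.61 above WT, Id3 over Id1 was 1.98 and 1.37 above, and Id3 over Id2 was 3.64 and 2.98 above, each time with DKO 1 before DKO 2. With 2 libraries against 1 an exact permutation test cannot go below p = 0.333, and none is given.

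To see where these levels stand among transcripts of like size, the genes were set against 271 short abundant transcripts, which have at most 1500 annotated bases and average 20 RPKM or more. The annotated transcripts used here were 934 bases for Id1, 1270 for Id2 and 1278 for Id3. The median level of the set was 142 RPKM in DKO 1, 136 in DKO 2 and 124 in WT. Its 3 most abundant members were Hbb-y, an embryonic globin, Cox7c, a subunit of cytochrome c oxidase, and Atpif1, an inhibitor of the mitochondrial ATPase. Cox7c had 17428 RPKM in DKO 1, 18985 in DKO 2 and 13616 in WT, so the Id genes are of moderate level in this company.

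Id3 ranked 87th of the 271 in DKO 1 and 153rd in DKO 2, against 209th in WT. It was 3.35 times the median of the set in DKO 1 and 0.775 times in DKO 2, against 0.282 times in WT. Id1 ranked 137th in DKO 1 and 204th in DKO 2, against 199th in WT, so by rank it stood lower in DKO 2 than in WT. Id2 ranked 161st in DKO 1 and 244th in DKO 2, against 161st in WT. Its rank in DKO 1 was thus that of WT. Only Id3 in DKO 1 stood above the median of the set, and Id1 in DKO 1 stood at 0.987 times that median.

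**Figure D3:**
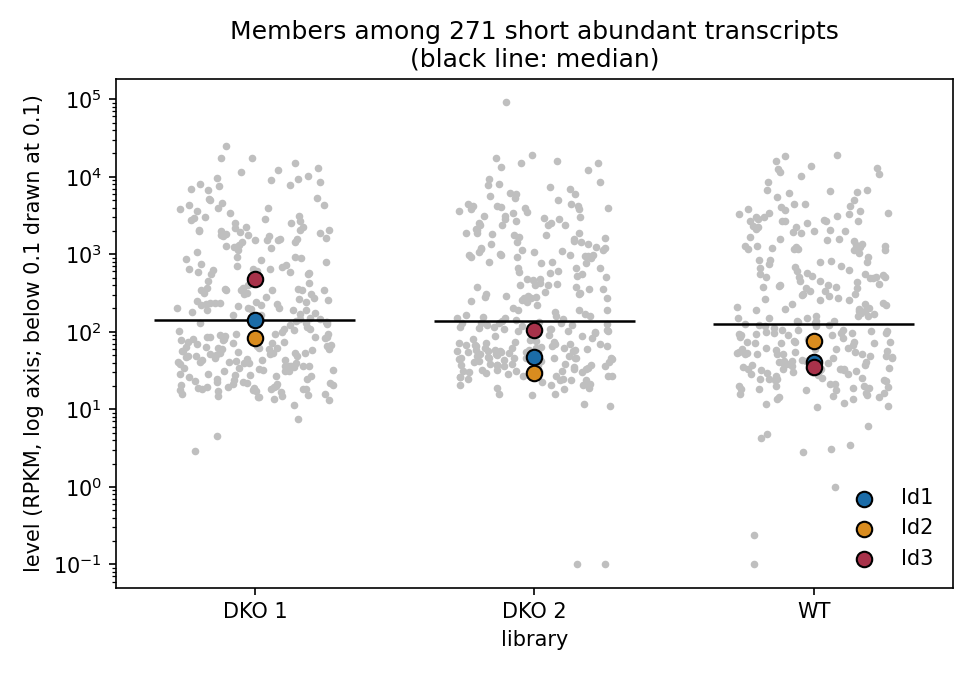
Levels of 271 short abundant transcripts (grey points, RPKM on a log axis) in each library, with Id1, Id2 and Id3 in colour and the median of the set as a black line. In DKO 1 Id3 lies above the line and Id1 just under it, whereas all 3 genes lie below it in DKO 2 and WT.

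The differences from WT were ranked in the same set. In DKO 1, 3 of the other 270 transcripts were further above WT than Id3. They were Cstdc5, of the stefin A cluster, S100a8, a calcium-binding protein of neutrophils, and Rabac1. In DKO 2, 23 transcripts exceeded Id3. Id1 was exceeded by 28 in DKO 1 and by 142 in DKO 2, so its difference in DKO 2 was near the middle of the set. For Id2, 109 were further above WT in DKO 1, and 11 were further below WT than Id2 in DKO 2. The gap between the DKO libraries was larger than that of Id3 in 14 of the other transcripts, than that of Id1 in 48 and than that of Id2 in 54. The median absolute gap of the set was 0.73 on the log2 scale.

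Within the set the difference from WT in DKO 1 also went with length. The median log2 difference in DKO 1 was 0.51 for 46 transcripts of up to 600 bases, −0.12 for 94 of over 600 and up to 900 bases and −0.33 for 131 of over 900 and up to 1500 bases. In DKO 2 the medians of the same classes were 0.35, 0.47 and 0.05. The 3 Id transcripts belong to the longest class, whose medians were the lowest in each DKO library. None of that class was further above WT than Id3 in DKO 1, and 5 were in DKO 2. For Id1 the counts were 3 and 53. Id2 had 7 transcripts of that class further below WT in DKO 2.

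Genes with the most similar pair of differences were looked up among all tested transcripts, as the Euclidean distance between the 2 log2 differences over the 3 libraries. Nearest to Id3 was C1qb, a complement component made by macrophages, with 19.4 RPKM in DKO 1, 4.90 in DKO 2 and 0.812 in WT (distance 0.28). The next 4 were Timm17b, of the mitochondrial import machinery (151, 27.97 and 11.6 RPKM), Cox8a (5302, 1241 and 503 RPKM) and Cox6a1 (7938, 2411 and 851 RPKM), both subunits of cytochrome c oxidase, and Rabac1 (456, 56.4 and 29.2 RPKM), each in the order DKO 1, DKO 2 and WT. All 5 were higher in DKO 1 than in DKO 2 and higher in DKO 2 than in WT, which follows from picking them by nearness to Id3.

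Nearest to Id1 were Gng5, a G protein gamma subunit (15210 RPKM in DKO 1, 5906 in DKO 2 and 5056 in WT, distance 0.18), Fxyd3, Npdc1, Lst1 and Capza2. Lst1, a leukocyte gene, had 59.6 RPKM in DKO 1, 26.99 in DKO 2 and 19.2 in WT. Nearest to Id2 were Lin7c (8.77 RPKM in DKO 1, 2.26 in DKO 2 and 7.59 in WT, distance 0.07), Ptx3, Btg2, Gabpa and Dld. Btg2, an immediate early gene, had 2.41 RPKM in DKO 1, 0.180 in DKO 2 and 1.93 in WT. With 3 libraries such likeness is a description, and many genes share a pattern over so few points.

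**Figure D4:**
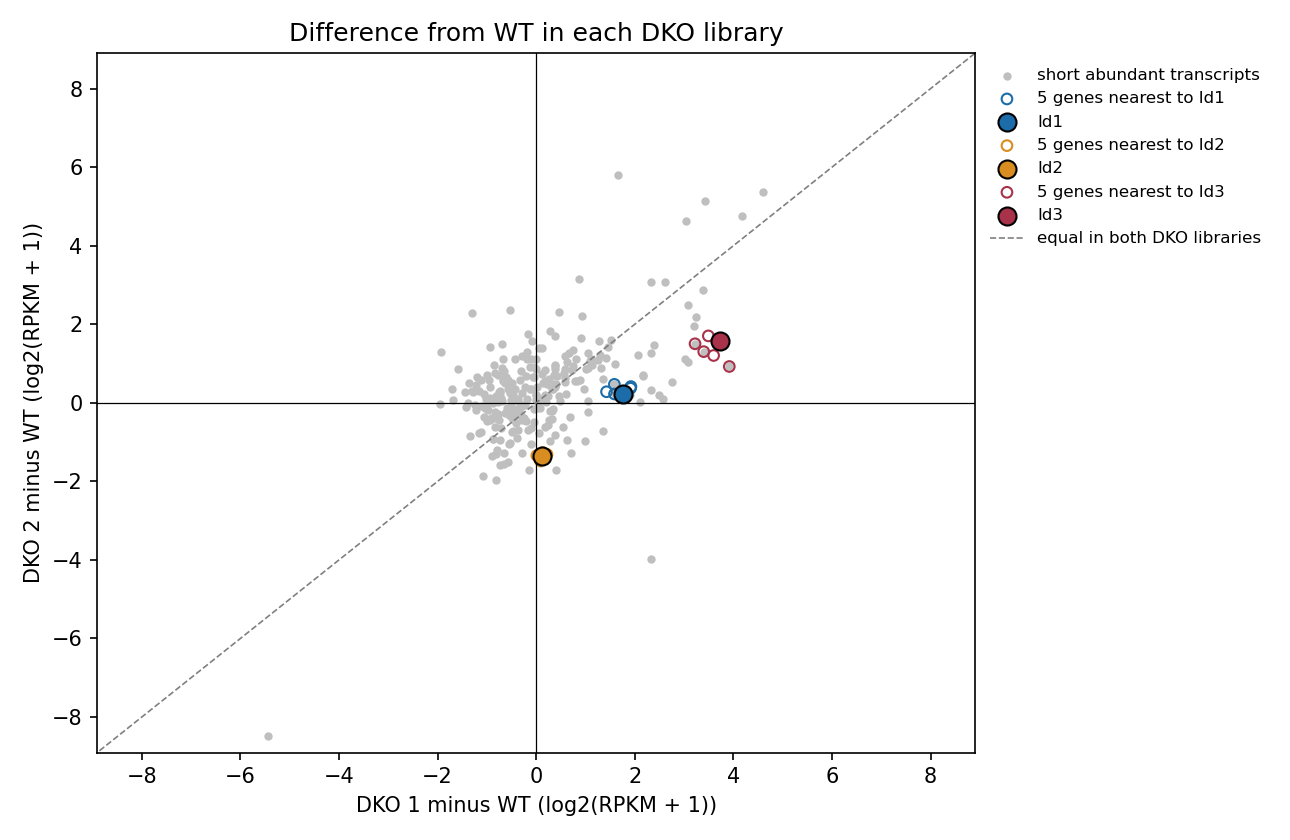
Difference from WT in DKO 1 (horizontal) and DKO 2 (vertical), on the log2(RPKM + 1) scale, for Id1, Id2 and Id3, the 5 genes nearest to each (open circles) and the short abundant transcripts (grey). Id3 lies at 3.73 and 1.56, Id1 at 1.76 and 0.21 and Id2 at 0.12 and −1.36, all below the dashed line of equal differences.

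The pathway around the Id genes was examined from the BMP ligand down to the partners of the ID proteins. Over 181 genes in 11 lists, 142 had a transcript in the table and 39 reached the level for testing, a mean of 1 RPKM. Of these 39, 9 lay above WT in both DKO libraries and 9 below, against 32.1% and 31% of all 2066 tested transcripts. The median log2 difference was 0.00 over the 39 genes and −0.01 over all tested transcripts. None passed limma with Benjamini-Hochberg adjustment (lowest adjusted p = 0.999) and 1 had an unadjusted p under 0.05, while 2 of 2066 transcripts (0.0968%) passed and 66 (3.19%) had an unadjusted p under 0.05. The fit has 1 residual degree of freedom, from the 2 DKO libraries, and takes the lone WT library to vary like them.

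Of the BMP ligands, 2 of 14 were tested. Bmp7 had 0.542 RPKM in DKO 1, 1.01 in DKO 2 and 1.61 in WT, below WT in both (adjusted p = 0.999). Bmp5 lay on either side, with 1.78 RPKM in DKO 1, 0.0231 in DKO 2 and 1.22 in WT. Bmp4, the ligand of the distal tips, was under the level for testing, with 1.16 RPKM in DKO 1, 0.557 in DKO 2 and 1.06 in WT. Of 18 antagonists 2 were tested, Fst and Fstl1, and both lay on either side of WT.

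Among the receptors, Acvr2b, a type II receptor, had 2.66 RPKM in DKO 1, 3.25 in DKO 2 and 4.02 in WT. Bmpr1a, a type I receptor, had 5.99, 2.37 and 3.38 RPKM, and Bmpr2, the main type II receptor, had 2.14, 1.01 and 1.06 RPKM, each in DKO 1, DKO 2 and WT. These last genes were above WT in DKO 1 alone. Acvrl1 and Eng, the receptor and co-receptor of endothelial BMP signalling, were listed at 0 in all libraries. The signal transducers lay close to WT, with Smad1 at 3.11, 3.27 and 3.70 RPKM and the common partner Smad4 at 5.73, 5.82 and 5.04 RPKM in the same order. Ski, a repressor of SMAD activity, had 2.12 RPKM in DKO 1, 3.18 in DKO 2 and 1.35 in WT.

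Of 24 other BMP target genes 3 were tested, and for each of them the DKO libraries lay on either side of WT. Tbx2, a T-box gene of lung mesenchyme, had 4.96 RPKM in DKO 1, 10.2 in DKO 2 and 6.13 in WT. Hey1, a repressor also under Notch control, had 2.44, 2.03 and 2.27 RPKM, and Apln, the apelin ligand, had 0.590, 2.18 and 0.881 RPKM, in that order of libraries. The inhibitory SMAD genes, which BMP signalling also induces, were under the level for testing and are named after their values were seen. Smad6 had 1.22 RPKM in DKO 1, 0.128 in DKO 2 and 1.38 in WT, and Smad7 had 0.815, 0.461 and 0.708 RPKM. Both were lowest in DKO 2, as were Id2 and Hey1, whereas Tbx2 and Apln were highest there. Of 4 tested TGF-beta target genes, Col1a1, Col1a2 and Ccn2 lay above WT in both DKO libraries, against 32.1% of all tested transcripts. On the log2 scale, Col1a1 was only 0.02 and Col1a2 0.09 above WT in DKO 2. Ccn2 was only 0.08 above WT in DKO 1. Ccn2, a matricellular protein, had 1.10 RPKM in DKO 1, 4.92 in DKO 2 and 0.983 in WT.

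The partners of the ID proteins gave few values. Of the E protein genes, Tcf3 and Tcf12 were listed at 0 throughout and Tcf4 had 0.564 RPKM in DKO 1, 0.149 in DKO 2 and 0.234 in WT. Zeros of genes with many transcripts can be failed estimates, and Tcf3 has 8 transcripts in the table and Tcf12 has 5. Of 40 tissue-restricted activators 4 were tested. Lyl1, a blood and endothelial factor, had 1.39 RPKM in DKO 1, 10.02 in DKO 2 and 0.296 in WT, and Twist2, a mesenchymal factor, had 6.34, 4.21 and 3.27 RPKM. Tcf15 was seen mainly in DKO 1, with 4.48 RPKM, 0 in DKO 2 and 0.0441 in WT, and Tcf21, of lung mesenchyme, had 14.4, 9.65 and 11.8 RPKM. Hes1, a helix-loop-helix repressor downstream of Notch, had 42.8 RPKM in DKO 1, 18.2 in DKO 2 and 32.7 in WT.

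Of 6 tested cell cycle genes linked to ID and E proteins, 0 lay above WT in both DKO libraries and 3 below. Of all tested transcripts, 32.1% lay above and 31% below. Ets2, a transcription factor whose activity ID proteins can restrain, had 5.20 RPKM in DKO 1, 4.30 in DKO 2 and 7.66 in WT. Ccnd1, the cyclin D1 gene, had 12.5, 14.1 and 14.1 RPKM, and Ccne1, the cyclin E1 gene, had 9.65, 12.4 and 12.4 RPKM. In DKO 2 the log2 difference from WT was only −0.007 for each of these cyclin genes. Id genes are induced by serum as immediate early genes are, and 11 such genes were tested. Of these 2 lay above WT in both libraries and 3 below, beside the same 32.1% and 31%. Ier2 had 5.78 RPKM in DKO 1, 12.0 in DKO 2 and 15.7 in WT, while Klf4 had 0.942, 1.81 and 0.466 RPKM.

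**Figure D5:**
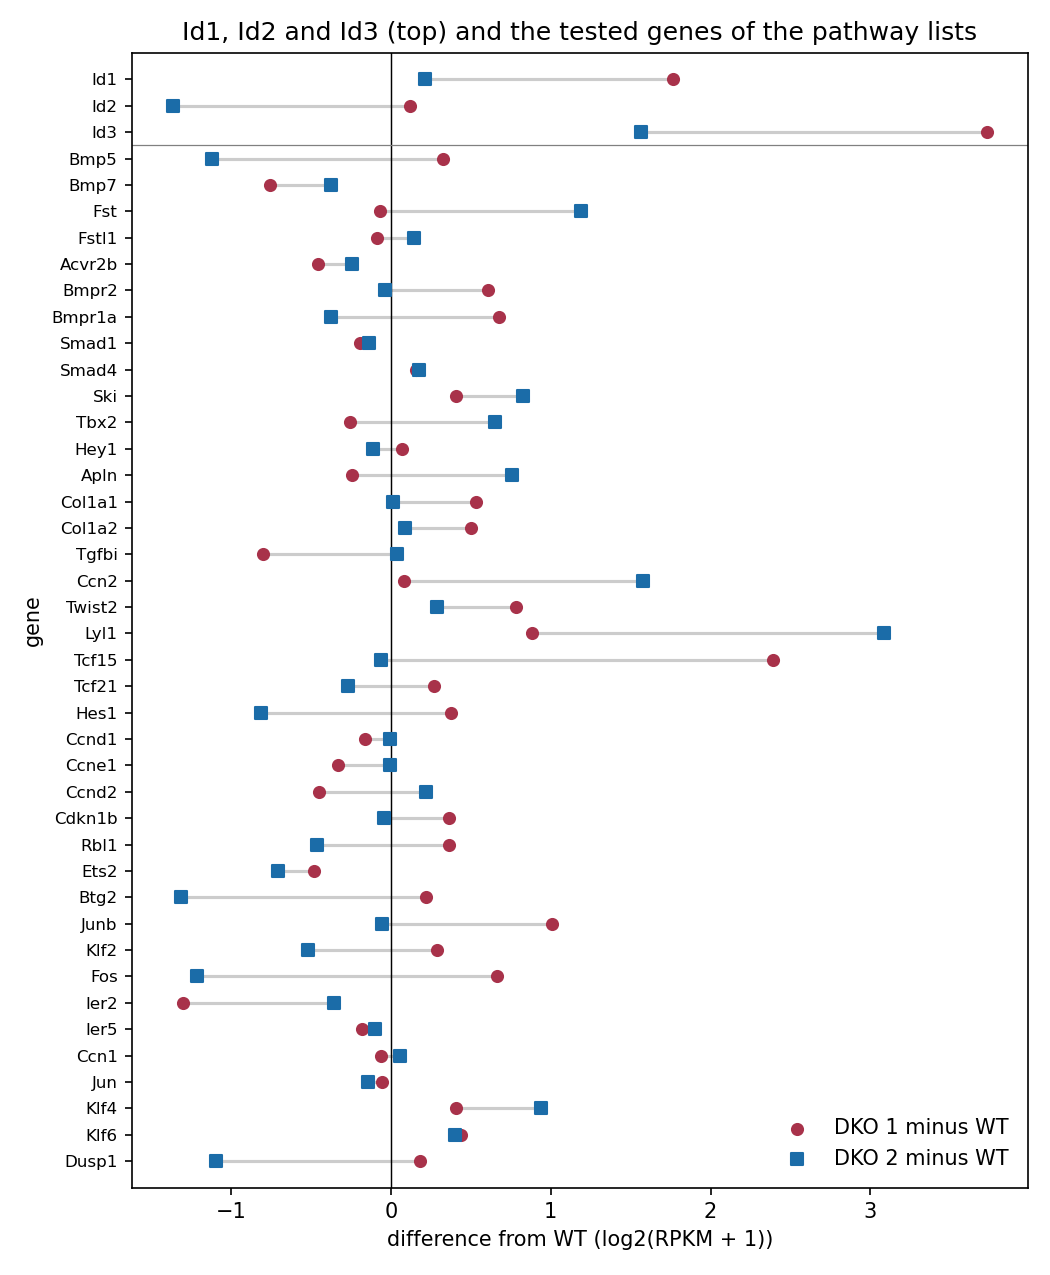
Difference from WT on the log2(RPKM + 1) scale in DKO 1 (circles) and DKO 2 (squares) for Id1, Id2 and Id3 and for the 39 tested genes of the pathway lists, joined by a line per gene. Id3 in DKO 1, at 3.73, is further from WT than any listed gene in either library.

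Markers of other cell types are given here beside the Id values. In whole-lung RNA, more or fewer cells of a type and more or less RNA per cell cannot be told apart. The summed level of 13 macrophage and leukocyte genes with a transcript was 402 RPKM in DKO 1, 131 in DKO 2 and 85.3 in WT, in the same order as Id3 and Id1, and 7 of 9 tested genes lay above WT in both DKO libraries, against 32.1% of all tested transcripts. Tyrobp, a receptor adaptor, had 219 RPKM in DKO 1, 52.3 in DKO 2 and 24.9 in WT. The other 2 tested genes of the list lay above WT in DKO 1 and below it in DKO 2. These were C1qc (25.1, 0.111 and 9.43 RPKM) and Fcer1g (89.1, 35.9 and 42.5 RPKM), in DKO 1, DKO 2 and WT. Tyrobp and Fcer1g made up most of the sum in each library. Of the tested genes, C1qa, C1qb, Cd52, Mrc1 and Tyrobp followed the order of the sum. Laptm5 (0.788, 2.79 and 0.103 RPKM) and Coro1a (2.41, 5.05 and 1.99 RPKM) were instead higher in DKO 2 than in DKO 1. Ptprc and Cd68, defining genes of this list, were listed at 0. The neutrophil list summed to 79.8 RPKM in DKO 1, 118 RPKM in DKO 2 and 3.20 RPKM in WT, with Elane, Ngp and S100a9 at 0. Both of its tested genes lay above WT in both DKO libraries, against 32.1% of all tested transcripts, and neither passed limma (lowest adjusted p = 0.0546). The mesothelial list, with 3 of its 8 genes in the table and none of them at 0, summed to 20.8 RPKM in DKO 1, 25.7 RPKM in DKO 2 and 7.93 RPKM in WT. Its 3 tested genes lay above WT in both DKO libraries, against the same 32.1%, and none passed limma. They were Aldh1a2, Fgf9 and Krt19, of which Krt19 is also in the lung epithelial list. Wt1, Msln and Upk3b, also of the mesothelial list, were not among them. The 15 endothelial genes with a transcript summed to 17.5 RPKM in DKO 1, 18.1 in DKO 2 and 14.1 in WT, and 7 of them, among them Pecam1, Tek and Eng, were listed at 0. The filter for testing is a mean over 2 DKO libraries and 1 WT library, so a gene low in WT can pass through its DKO values. C1qa (0.304 RPKM in WT), C1qb (0.812), Laptm5 (0.103) and Camp (0) did so. Nothing is therefore read from the counts above or below WT in the marker lists. The part of these cells in the Id levels was not tested.

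The summed mesenchymal list was 163 RPKM in DKO 1, 97.8 in DKO 2 and 107 in WT, with Pdgfrb, Postn and Tbx4 at 0, and 5 of 9 tested genes lay above WT in both DKO libraries, against 32.1% of all tested transcripts. The lung epithelial list summed to 33.0 RPKM in DKO 1, 39.0 in DKO 2 and 421 in WT, of which Sftpc, surfactant protein C, made up most in WT, and 8 of 10 tested genes lay below WT in both, against 31% of all tested transcripts. Sftpc had 7.55 RPKM in DKO 1, 0.0364 in DKO 2 and 369 in WT, and fell (limma adjusted p = 0.0199), a call that did not hold with TPM, quantile normalization, robust moderation or no filter on low values. DKO 2, in which Id2 was lowest, had the highest sums of the liver list (11.4 RPKM in DKO 1, 183 in DKO 2 and 7.55 in WT) and of the heart muscle list (19.5, 110.6 and 28.9 RPKM). The erythroid list was likewise highest in DKO 2, led by Hbb-y with 25259 RPKM in DKO 1, 91331 in DKO 2 and 18354 in WT. Whether tissue next to the lung had a part in the low Id2 level of DKO 2 was not tested.

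The sequences before the start sites of Id2 and Id3 are shown because the shares of these 2 genes in the family level differed most. The RefSeq promoter table (GRCm38.p6) held both, and the 250 bases before the start were searched on both strands. The motifs searched were the TATA box (TATAAA), the CCAAT box (CCAAT), a site of BMP-activated SMAD proteins (GGCGCC), a SMAD palindrome (GTCTAGAC), the E-box (CANNTG) and the core of the cyclic AMP response element (TGACG), and no matches overlapped in these windows. The Id2 window is chr12:25096093-25096342 on the minus strand and that of Id3 is chr4:136143572-136143821 on the plus strand. Capitals mark the CCAAT box, the GGCGCC site and the E-box on either strand.
Id2: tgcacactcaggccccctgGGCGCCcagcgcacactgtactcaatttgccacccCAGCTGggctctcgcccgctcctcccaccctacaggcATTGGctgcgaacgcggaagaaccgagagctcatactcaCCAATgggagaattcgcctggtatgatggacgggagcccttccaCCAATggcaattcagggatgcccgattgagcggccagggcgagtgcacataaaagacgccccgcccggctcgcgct
Id3: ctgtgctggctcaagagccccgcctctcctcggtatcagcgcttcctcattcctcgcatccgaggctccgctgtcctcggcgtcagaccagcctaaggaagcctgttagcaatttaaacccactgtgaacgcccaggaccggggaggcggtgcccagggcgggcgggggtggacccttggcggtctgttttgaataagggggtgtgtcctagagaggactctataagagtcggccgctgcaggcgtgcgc
The Id2 window held 3 CCAAT boxes, 1 GGCGCC site and 1 E-box, whereas the Id3 window held 0 of each and 1 TGACG core. Of 32851 promoter windows of this length, 33.9% held a CCAAT box, 9.59% a GGCGCC site, 66.2% an E-box and 17.8% a TGACG core. The TATA box as spelled, in 12.4% of all windows, and the SMAD palindrome, in 0.167%, were in neither. Both windows were 62.8% G and C, against a median of 52.4% over all windows. A match is a run of letters and not a bound site, and Id1 was not matched in that table. Sequence beyond these 250 bases was not searched, so a site absent from a window may lie elsewhere.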

How the data were processed

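The libraries were made from total RNA of whole lung, extracted with Trizol, with the SMARTer Ultra Low Input kit, per the labels' protocols. The authors deposited RPKM values for RefSeq transcripts, 1 column per library. Per the submitters' processing notes, cutadapt, TopHat2, HTSeq and edgeR were used with mm10. The sources used here give no versions, order, annotation, lengths or strand setting.

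Identifiers were matched to the RefSeq gene table (GRCm38.p6) for 16151 transcripts and to GENCODE for 77 more, leaving 155 without a name. Values were analysed as log2(RPKM + 1), with a pseudocount of 1, for the 2066 transcripts that averaged 1 RPKM or more. The call was limma 3.58.1 in R 4.3.3 (trended moderation, prior degrees of freedom 11.2, two-sided, Benjamini-Hochberg adjusted p under 0.05), checked on 10 simulated data sets. RPKM times annotated length gave the worth of 1 read as the commonest low product, sought between 0.01 and 0.06. Of values up to 100 reads, 45.2%, 43.9% and 45.7% (DKO 1, DKO 2, WT) lay within 0.05 of a whole read, so reads are approximate. Intervals are exact binomial at 95% (SciPy 1.17.1), and cover counting error only, since PCR copies of a molecule are not independent.

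The genes, the lists and the motifs were chosen with earlier results of these data known. Named genes were Id1, Id2 and Id3, up to 4 genes per list whose DKO values lay on 1 side of WT, and the 5 genes nearest to each Id gene, leaving out predicted genes. The rule covered Id1 and Id3, and the neighbours of Id2 were added after the values were seen, as were the genes on either side of WT or under the level for testing, the length classes and the marker genes given by value. Alternatives were pseudocounts, filters, scalings, moderation settings, a 1.5-fold rule, other limits for the short abundant set and leaving out each DKO library.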

Additional observations from a re-analysis of the deposited data

How the results depend on the processing

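The differences of Id1, Id2 and Id3 (DKO mean minus WT, log2) moved by less than the SD between the DKO libraries under every pseudocount and scaling tried. With 2 DKO libraries, leaving 1 out always moves a difference by less than their SD, which says nothing about stability. Between the left-out libraries the differences ran from 0.21 to 1.76 for Id1, from −1.36 to 0.12 for Id2 and from 1.56 to 3.73 for Id3, so that Id2 changed sign. For Id3 over Id1 the range was 1.37 to 1.98, against 1.68 with both DKO libraries. Scaling shifted all transcripts of DKO 1 and DKO 2 against WT by −0.06 and −0.12 (median of expressed transcripts), −0.20 and −0.13 (median of short abundant transcripts) and −0.07 and −0.38 (TPM). The differences in percentile among short abundant transcripts, 10.6 for Id1, −15.4 for Id2 and 33.0 for Id3, kept their sign under all 4 other limits of length and level.

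Counts over all transcripts depended on the settings. Filters, the 1.5-fold rule and TPM, which was filtered on its own values, change what is counted. Against a single DKO library, no agreement between DKO libraries is asked for. The cause of the other changes was not tested. Against 2 transcripts that passed limma, there were 13 with a pseudocount of 0.1, 1 with 5, 16 and 13 with medians of expressed and of short abundant transcripts made equal, 0 with TPM, quantile normalization or no filter (transcripts above 0 in any library), and 10 with a filter at 5 RPKM. The adjusted p of Sftpc, 0.0199, was 0.922 without a filter, 0.952 with TPM, 0.996 with quantile normalization and 0.232 with robust moderation, and at most 0.0378 under the other settings tested. Against 97 past the 2-fold rule, there were 166 with a pseudocount of 0.1, 34 with 5, 203 with TPM, 50 with a filter at 5 RPKM, 275 with a 1.5-fold rule and 280 to 555 against a single DKO library. The pathway genes above WT (9) were 5 with the median of short abundant transcripts made equal, 26 without a filter, 3 with a filter at 5 RPKM and 16 to 23 against a single DKO library. Those below WT (9) were 18 with TPM, 24 without a filter, 4 with a filter at 5 RPKM and 16 to 23 against a single DKO library. No limma test was run with 1 DKO library, which leaves no residual degree of freedom. No paired analysis was possible because there is 1 WT library and its replicate number only names it.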
